A study of Homo sapiens with 26 samples.

Results

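The genes described here are those named as voltage-gated sodium channel subunits (SCN followed by a number and A or B), voltage-gated calcium channel subunits (CACNA, CACNB and CACNG) and potassium channel subunits (KCN), measured in human small cell lung cancer cell lines. Of 136 such symbols in the tables, 115 were selected on their level: they reached 1 FPKM in some column of the parental or knockout tables. FPKM counts sequenced fragments for each kilobase of a transcript and each M (mega) of mapped fragments, so it is scaled for length and levels can be compared between genes. Because these levels chose the members, the fact that a member is expressed somewhere is not a result. The members just inside the threshold were KCNA10, with a highest value of 1.08, CACNG3 with 1.14 and KCNE5 with 1.16. Just outside were KCNS1 with 0.939, KCNK4 with 0.917 and KCNJ18 with 0.888.

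The symbols cover more than the name voltage-gated ion channel. By name, 53 of the 115 members encode pore subunits of the classical voltage-gated families. Another 28 encode auxiliary subunits named for these families, which set the amount or gating of a pore at the membrane. Another 33 encode potassium channels outside the classical voltage-gated families, namely the inward rectifiers (KCNJ), the tandem-pore leak channels (KCNK) and channels opened by calcium or sodium ions with their partners (KCNMA, KCNMB, KCNN, KCNT). The remaining symbol, KCNRG, is named as a potassium channel regulator.

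In an excitable cell, sodium channels open first on depolarisation and carry the upstroke of the action potential. Calcium channels then admit the calcium that triggers the release of vesicles, with the P/Q and N types serving neurotransmitter and hormone release, the L type slower signals and the T type activity near rest. Potassium channels bring the membrane back to rest: the KCNA, KCNB, KCNC and KCND families repolarise it, KCNQ and KCNH channels hold it back from firing again, and leak channels and inward rectifiers set the resting potential. Small cell lung cancer is mostly a neuroendocrine tumour, and some of its lines are known to be electrically excitable. POU2F3 is the master transcription factor of tuft cells, chemosensory cells of the epithelium.

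RNA came from 26 libraries of polyA-selected RNA. The labels place 12 of these in a knockout experiment in the lines NCI-H211, NCI-H526, COR-L311 and NCI-H1048. A lentivirus brought in 1 control guide RNA (sgNeg) or 1 of 2 guides against POU2F3 (sgPOU2F3e10.1 and sgPOU2F3e10.2, here sgPOU2F3), and cells were harvested on day 4 (NCI-H211, NCI-H1048) or day 5 (NCI-H526, COR-L311). The other 14 libraries came from exponentially growing, uninfected parental lines, 1 library per line: these 4 lines and DMS114, DMS79, NCI-H128, NCI-H146, NCI-H446, NCI-H510, NCI-H524, NCI-H69, NCI-H82 and NCI-H889. The labels give medium HITES for NCI-H1048, a higher serum content for NCI-H128 and a choice of media for all the other lines. They do not say how cells were selected after infection or whether clones were taken. The authors deposited 1 sgNeg value and 1 sgPOU2F3 value per line, so the 2 guides are combined, no spread between guides can be given, and the line is the only replicate. A p-value here therefore measures the spread between lines. The day of harvest and the line cannot be told apart.

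The targeted gene was still read in every sgPOU2F3 column. POU2F3 stood at 501 FPKM with sgNeg and 204 with sgPOU2F3 in NCI-H526, at 307 and 21.3 in NCI-H211, at 271.6 and 218 in COR-L311, and at 198 and 60.8 in NCI-H1048. The value with sgPOU2F3 was therefore 80.35% of the sgNeg value in COR-L311 and 6.95% in NCI-H211, the weakest and the strongest reduction of its RNA. RNA of a cut gene can persist, and protein was not measured here. Lower RNA in each cell and a lower share of expressing cells cannot be told apart in these bulk samples. The tables give no counts. From the steps between low FPKM values, depth was estimated at 9.85 to 31.12 M fragments for the parental columns, 9.58 to 15.56 M for sgNeg and 18.13 to 29.45 M for the combined sgPOU2F3 columns. The share of genes listed at 0 was 13.82% to 15.9% with sgPOU2F3 and 18.28% to 21.53% with sgNeg, so weakly expressed genes were listed at 0 less often in the deeper, combined columns. The summed FPKM of 10 tuft cell markers, POU2F3 among them, was 615 to 1965 in the 4 parental lines and 1.76 to 23.2 in the 10 others. That of 10 neuroendocrine markers was 666 to 1736 and 133 to 5683. Fibroblast markers (5 genes) summed to at most 6.80 in the 4 parental lines and to as much as 886 in the 10 others, the highest being DMS114, and leukocyte markers (4 genes) to at most 14.1 in any parental line.

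Some members carry the octamer, the sequence that POU2F factors are known to bind, or part of the RE1 element, the site of the neuronal gene repressor REST, next to a start site. These sites are shown because they are the sequences in this gene family that bear on the factor knocked out and on a repressor measured in the same tables. Promoter windows were read from RefSeq on GRCh38.p14, from 250 bases before to 50 after each start, and 82 of the 115 members matched, with 130 windows. The octamer ATGCAAAT or its reverse ATTTGCAT was present in windows of 3 members, or 2.31% of the member windows, against 1.77% of all 35116 windows. Capitals mark the match, each sequence runs 5′ to 3′ on the strand of the gene, and the number after the coordinates is the first base of the match relative to the start.
KCNA10 octamer, chr1:110519156-110519203, minus strand, -8: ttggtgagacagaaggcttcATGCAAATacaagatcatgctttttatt
KCNAB2 octamer in reverse, chr1:5992548-5992595, plus strand, -108: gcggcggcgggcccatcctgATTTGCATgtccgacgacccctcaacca
KCNN3 octamer nearer to the start, chr1:154859900-154859947, minus strand, -51: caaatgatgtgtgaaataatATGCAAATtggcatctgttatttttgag
KCNN3 octamer farther from the start, chr1:154859923-154859970, minus strand, -74: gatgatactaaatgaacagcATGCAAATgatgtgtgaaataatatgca

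The part of RE1 searched, TTCAGCACC or its reverse GGTGCTGAA, was found in windows of 3 members, again 2.31% of the member windows, against 0.376% of all windows. This search was added after values had been seen. The octamer and this motif do not overlap in any of the windows printed.
CACNG3 RE1 part, chr16:24256085-24256120, plus strand, -243: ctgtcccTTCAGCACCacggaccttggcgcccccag
KCNH6 RE1 part, chr17:63523108-63523153, plus strand, -233: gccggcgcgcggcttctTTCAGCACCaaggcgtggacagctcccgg
KCNK3 RE1 part in reverse, chr2:26692671-26692719, plus strand, -31: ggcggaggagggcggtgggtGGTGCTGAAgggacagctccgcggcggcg

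Whole windows are shown for KCNH2, read in every parental line, and for CACNA1A, at or near 0 in the 4 knockout lines and the most abundant member in 3 of the others. Capitals mark the GC box GGGCGG or its reverse CCGCCC, which is present in 45.0% of all windows and 51.5% of the member windows.
KCNH2, chr7:150978272-150978571, minus strand: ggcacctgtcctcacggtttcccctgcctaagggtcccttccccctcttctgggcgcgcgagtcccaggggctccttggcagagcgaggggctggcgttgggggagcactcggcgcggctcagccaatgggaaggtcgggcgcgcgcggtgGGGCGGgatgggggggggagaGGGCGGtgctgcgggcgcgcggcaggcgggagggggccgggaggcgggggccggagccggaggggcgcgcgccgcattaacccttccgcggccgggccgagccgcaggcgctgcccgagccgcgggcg
CACNA1A, chr19:13506430-13506729, minus strand: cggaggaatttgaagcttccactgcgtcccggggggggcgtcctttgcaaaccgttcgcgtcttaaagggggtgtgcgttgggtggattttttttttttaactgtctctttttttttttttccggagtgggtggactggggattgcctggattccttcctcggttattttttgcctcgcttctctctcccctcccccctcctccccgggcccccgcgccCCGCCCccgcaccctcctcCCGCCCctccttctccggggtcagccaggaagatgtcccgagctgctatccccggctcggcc
Each of these windows holds 2 GC boxes, with a G and C content of 78.3% for KCNH2 and 60.7% for CACNA1A. KCNH2 has other start sites in the same table: 4 further windows hold 0 to 5 GC boxes, with a G and C content of 39.3% to 75.3%, all below that of the window shown. A match is a stretch of letters, and nothing here measured binding.

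Most members were read in some lines and not in others. In the 14 parental lines, a median of 58.5 members reached 1 FPKM and 16.5 reached 10 FPKM. Only 5 members reached 1 FPKM in all 14 lines: the pores KCNH2 and KCNH3, the calcium channel β subunits CACNB1 and CACNB3, which bring calcium pores to the membrane, and KCNAB2, a cytoplasmic β subunit of KCNA channels. In contrast, 10 members reached it in exactly 1 line and 2, KCNA10 and KCNE5, in none, since they entered through knockout columns. The heat map of the members by class and line shows this patchwork.

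**Figure D1:**
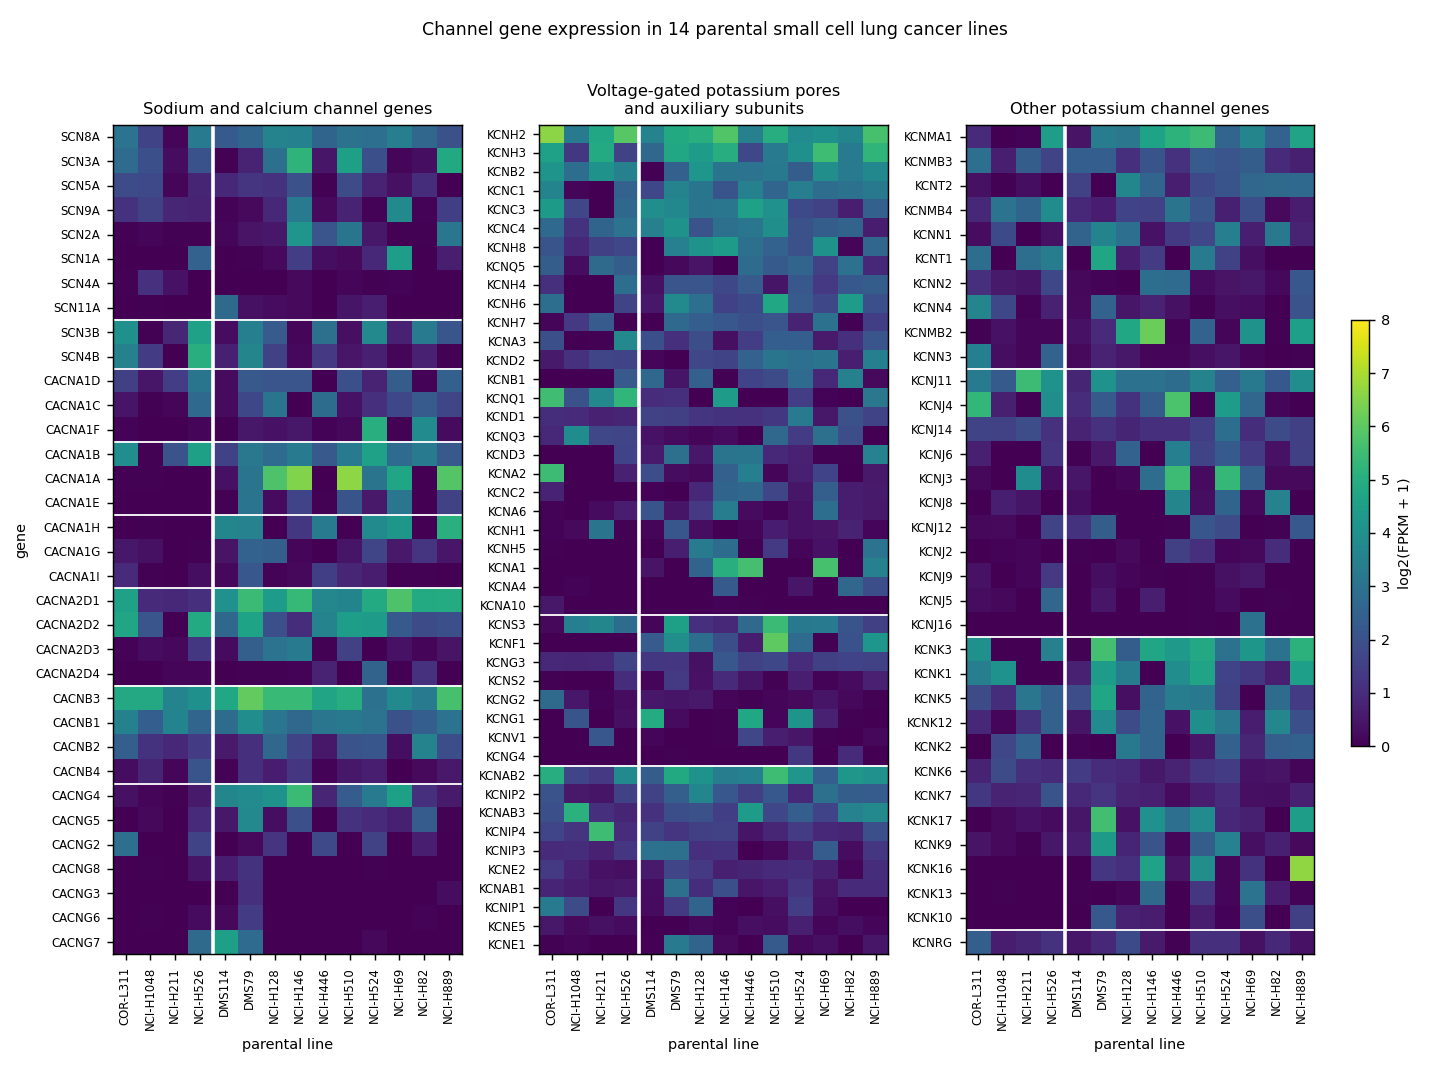
Level of 112 of the 115 members (rows) in the 14 parental lines (columns), as log2(FPKM + 1), with a colour scale from 0 to 8 and darker colour for lower values. White horizontal lines separate the classes of subunit, and the white vertical line separates the 4 lines used for knockout (left) from the 10 others. CACNB3 and KCNH2 are lit across the whole width, while CACNA1A and KCNF1 are dark in the 4 lines on the left.

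Among the sodium channel genes, SCN8A, a pore of neurons, was the most widely read, with a median of 5.94 FPKM and at least 1 FPKM in 13 of 14 lines. NCI-H211 was the exception at 0.0893. The β subunits SCN3B and SCN4B, adhesion-type proteins that tune sodium pores, were highest in NCI-H526, with 22.6 and 31.8 FPKM. Both also stood at 15.2 and 10.5 FPKM in COR-L311 and at 0.81 and 0 in NCI-H211.

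Calcium channel genes were read as pores with their partners in most lines. CACNB3 had a median of 26.7 FPKM, from 6.97 in NCI-H524 to 67.2 in DMS79. CACNA2D1, the α2δ subunit that carries calcium pores to the surface and binds gabapentin, had a median of 21.6 FPKM and ranged from 0.842 in NCI-H211 to 53.1 in NCI-H69. The N-type pore CACNA1B was read at 1.96 to 22.9 FPKM in 13 lines and at 0.0345 in NCI-H1048. The P/Q-type pore CACNA1A, a marker for these genes, was high in a subset of lines: 99.2 FPKM in NCI-H510, 87.6 in NCI-H146, 56.7 in NCI-H889, 53.8 in NCI-H128 and 25.4 in NCI-H69, but 7.37 in both DMS79 and NCI-H524 and at most 0.276 in the other 7 lines. The T-type pore CACNA1H was read at 1 FPKM or more in 7 lines, with 32.9 in NCI-H889 as its highest value. The L-type pore CACNA1D, with a median of 2.35 FPKM, led its class.

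KCNH2, which encodes the hERG channel that repolarises the heart and is the other marker for these genes, had the highest median of all members at 27.4 FPKM. It ranged from 8.59 in NCI-H1048 to 96.8 in COR-L311, with 59.0 in NCI-H526 and 26.5 in NCI-H211, so the 4 knockout lines spanned the whole range of the panel. Its relative KCNH3 ranged from 1.47 in NCI-H1048 to 45.0 in NCI-H69. KCNB2, a delayed rectifier, had a median of 8.49 FPKM and stood at 0.0222 in DMS114. NCI-H1048 was the lowest line for both KCNH genes and DMS114 for KCNB2.

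Among the other potassium channels, the leak channel KCNK3 had a median of 12.8 FPKM, with 47.3 in DMS79 and 0 in both NCI-H1048 and NCI-H211. KCNMA1, the large-conductance calcium-activated channel, had a median of 8.77 FPKM and was highest in NCI-H510 at 43.6. KCNJ11, the pore of the ATP-sensitive channel of insulin-secreting cells, had a median of 7.67 FPKM and was highest in NCI-H211 at 43.6. Some members were concentrated in few lines. KCNK16, a leak channel known from pancreatic islets, stood at 100.5 FPKM in NCI-H889, 23.6 in NCI-H146 and 14.7 in NCI-H510, and at 0 in the 4 knockout lines. KCNA2 stood at 44.2 in COR-L311 and at most 10.0 elsewhere. KCNIP4, a calcium-binding partner of KCND channels, stood at 45.1 in NCI-H211 and at most 2.88 elsewhere. KCNJ12 is nearly identical in sequence to KCNJ18, so reads of these genes may have been split between them.

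The comparison of the 4 knockout lines with the 10 other parental lines asks how the lines that carry POU2F3 differ at baseline. Of the 115 members, 87 reached 1 FPKM in 4 or more of the 14 lines and were tested together with all 13226 such genes. No member passed limma's Benjamini-Hochberg adjusted p of 0.05, and of all genes tested 0.212% were called higher and 0.0378% lower in the 4 lines. At an unadjusted p of 0.05, 11 members were lower and 3 higher, or 12.6% and 3.45% of those tested, against 4.06% and 4.6% of all genes. The median difference on the scale log2(FPKM + 1) was -0.64 over the 87 members and -0.003 over all genes. This scale understates differences of genes with low values. Of the 87, 18 passed the filter only through the 10 other lines and none only through the 4, so for those 18 a lower level in the 4 lines was built into the selection. They include 6 of the 11 lower members. For this reason, and since the choice of genes was made with earlier results known, these shares are descriptions and support nothing.

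CACNA2D1 had the smallest p. It stood at 0.842 FPKM in NCI-H211, 0.923 in NCI-H1048, 1.10 in NCI-H526 and 22.9 in COR-L311, while the 10 other lines ran from 11.3 over a median of 28.8 to 53.1. COR-L311 alone of the 4 lines lay within the range of the others. The difference was -2.84 ± 0.60 (log2, SE), with an adjusted p of 0.063 in limma. Without COR-L311 the adjusted p was 0.00115 and CACNA2D1 was called lower.

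The 4 knockout lines lay wholly below the 10 others for 2 members, 2.3% of those tested, against 0.25% of all genes. These were CACNG4, a γ subunit of the TARP family, and KCNF1, an electrically silent subunit that assembles with KCNB pores. Neither reached 1 FPKM in any of the 4 lines, so both passed the filter only through the lines where they are high, and this count supports nothing. CACNG4 was 0.0366 to 0.489 FPKM in the knockout lines. The others ran from 0.505 over a median of 10.3 to 42.6, a difference of -2.71 ± 0.78 (log2, SE, adjusted p = 0.232 in limma). The gap between NCI-H526 at 0.489 and NCI-H889 at 0.505 was narrow. KCNF1 was listed at 0 in COR-L311, NCI-H1048 and NCI-H211 and at 0.0143 in NCI-H526. It stood at 0.0414 to 63.8 in the 10 others, a difference of -2.67 ± 0.81 (adjusted p = 0.262 in limma). No member lay wholly above the others, against 0.401% of all genes.

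CACNA1A was between 0.0070 and 0.0224 FPKM in the 4 lines. NCI-H446 at 0.0047 and NCI-H82 at 0.0196 were as low, and DMS114 had 0.276, so the groups overlapped in spite of a median of 16.4 in the 10. The difference was -3.58 ± 1.21 (log2, SE), the largest among the members tested, with an adjusted p of 0.345 in limma. All 3 tested pores of its class, CACNA1A, CACNA1B and CACNA1E, had negative differences, and both tested T-type pores, CACNA1G and CACNA1H, did too. All of these except CACNA1B passed the filter only through the 10 other lines, so their negative sign was built into the selection and supports nothing. CACNA1B had a difference of -0.28 (log2). Most other classes leaned lower too. The leak channels (KCNK) had 8 negative and 2 positive differences, the potassium auxiliary subunits 6 and 2, and the electrically silent potassium subunits 3 and 1. In every class, the sign of members that passed the filter only through the 10 other lines was built into the selection. Some classes were balanced or leaned the other way. Of the L-type pores tested 1 difference was positive and 1 negative, of the inward rectifiers 3 and 3, and of the sodium β subunits 2 and 1. The ion-activated potassium class, which holds KCNMA1, KCNT2 and KCNN1, had 5 positive and 4 negative differences, with a median of 0.008. Of the 25 tested voltage-gated potassium pores, 18 had a negative and 7 a positive difference, with a median of -0.72. KCNMA1, with -2.20 ± 0.89 (log2, SE), KCNT2, a sodium-activated channel, with -1.88 ± 0.55, KCNN1, a small-conductance calcium-activated channel, with -1.47 ± 0.63, and CACNA1H with -2.48 ± 0.90 completed the 8 lower members with the smallest p. Their adjusted p-values in limma ran from 0.232 for KCNT2 to 0.524 for KCNN1. KCNT2, like CACNA1H, passed the filter only through the 10 other lines, so its negative sign was built into the selection and supports nothing.

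In the other direction the largest difference was that of KCNQ1, the pore of the slow cardiac delayed rectifier and of potassium recycling in epithelia. KCNQ1 stood at 45.6 FPKM in COR-L311, 37.8 in NCI-H526, 12.6 in NCI-H211 and 2.96 in NCI-H1048. The others had a median of 0.547, with NCI-H146 at 20.3 and NCI-H889 at 7.92 inside the range of the 4. The difference was 3.02 ± 0.84 (log2, SE, adjusted p = 0.201 in limma). KCNQ1 shares its locus with an antisense RNA, KCNQ1OT1, and the sources used here do not give the use of strand in counting, so reads of the pair cannot be told apart.

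The next members by p were smaller and less even. KCNMB4, the neuronal β subunit of KCNMA1, stood at 0.887 FPKM in COR-L311, 4.93 in NCI-H211, 7.34 in NCI-H1048 and 13.6 in NCI-H526, against a median of 1.40 in the others (1.26 ± 0.57, log2, SE, adjusted p = 0.545 in limma). SCN4B rested on NCI-H526 and COR-L311, with a difference of 1.54 that was 0.69 without NCI-H526 and 2.37 without NCI-H211. KCNIP4 rested on NCI-H211, from 1.13 to 0.08 without it, and KCNQ3 on NCI-H1048 at 13.9 FPKM, from 1.05 to 0.43. KCNIP1 rested on COR-L311 at 8.85 FPKM, with a difference of 0.98 that was 0.41 without COR-L311 and 1.51 without NCI-H211. That of KCNMB4 was 0.84 without NCI-H526. KCNK7 never passed 3.17 FPKM. The dot plot of these genes shows each line.

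**Figure D2:**
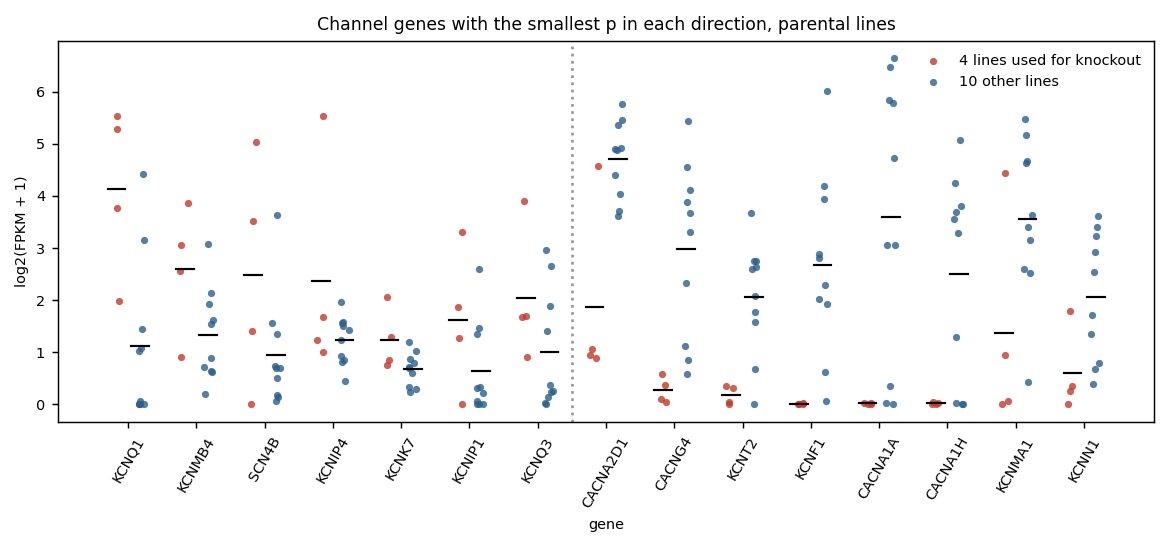
Level in each parental line, as log2(FPKM + 1), of tested members with the smallest p in each direction, 7 higher on the left and 8 lower on the right of the dotted line. Red points are the 4 knockout lines, blue points the 10 others, and bars are group means. For CACNG4 and KCNF1 all red points lie below all blue points, and for CACNA2D1 1 red point, COR-L311, lies among the blue.

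The knockout comparison asks which channel genes differ after POU2F3 is cut. Of the members, 59 reached 1 FPKM in 4 or more of the 8 columns and were tested among 12387 genes, with the line as a term and 3 residual degrees of freedom. No member passed limma's adjusted p of 0.05. Over all genes 0.0161% were called higher and 0.0% lower, so the test called almost nothing in either direction. At an unadjusted p of 0.05, 5 members were higher and 3 lower, or 8.47% and 5.08%, against 4.67% and 7.08% of all genes. The median log2 ratio of sgPOU2F3 over sgNeg was 0.02 over the members and -0.02 over all genes. In all 4 lines 9 members were higher and 8 lower, 15.3% and 13.6% of those tested, against 9.81% and 12.9% of all genes. These shares lie near those of all genes.

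KCNS3, a silent subunit that modifies KCNB pores, had the smallest p and the most even ratio. It stood at 21.7 FPKM with sgNeg and 30.6 with sgPOU2F3 in NCI-H1048, at 13.8 and 17.4 in NCI-H211, at 3.54 and 5.08 in NCI-H526 and at 0.716 and 1.18 in COR-L311. The log2 ratio was 0.39 ± 0.07 (SD, n = 4 lines, adjusted p = 0.388 in limma). CACNA2D1 was also higher in 4 of 4 lines, from 12.2 to 30.8 FPKM in COR-L311, with 1.44 or less in the other 3 lines on either side (0.60 ± 0.48, adjusted p = 0.402 in limma). CACNB3 was the abundant member among these, at 38.2 and 42.9 FPKM in NCI-H1048 and 23.6 and 33.3 in COR-L311, with a log2 ratio of 0.27 ± 0.18 (SD, adjusted p = 0.422 in limma).

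KCNN4, the intermediate-conductance calcium-activated channel of epithelia and lymphocytes, stood at 2.23 FPKM with sgNeg and 7.01 with sgPOU2F3 in NCI-H526, and at 0.0944 and 1.03 in NCI-H211. In COR-L311 and NCI-H1048 its values were 14.1 and 15.5, and 5.08 and 5.70. The log2 ratio was 0.62 ± 0.58 (SD, adjusted p = 0.413 in limma), and 0.39 without NCI-H526. KCNMB3, a β subunit of KCNMA1, had 0.41 ± 0.29 (adjusted p = 0.413) and a ratio near 0 in NCI-H1048. KCNH6 had 0.71 ± 0.82, KCNMA1 0.54 ± 0.70 and KCNC1, a fast repolarising pore, 0.30 ± 0.25, with adjusted p-values from 0.435 to 0.472 in limma.

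KCNQ1, high in the parental knockout lines, had a lower value with sgPOU2F3 in 4 of 4 lines. It stood at 44.1 FPKM with sgNeg and 20.8 with sgPOU2F3 in COR-L311, 25.1 and 21.9 in NCI-H526, 7.77 and 3.05 in NCI-H211, and 4.61 and 4.51 in NCI-H1048 (-0.59 ± 0.57, log2, SD, n = 4 lines, adjusted p = 0.408 in limma). COR-L311 and NCI-H211 carried the larger part. The summed tuft markers, which include POU2F3 itself, were lower with sgPOU2F3 in each line as well. They went from 2281 to 203 FPKM in NCI-H211, from 508 to 111.6 in NCI-H1048, and from 1682 in both other lines to 860 in COR-L311 and 794 in NCI-H526. Their part in the result was not tested.

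KCNN2, a small-conductance calcium-activated channel, had a log2 ratio of -0.37 ± 0.17 (SD, adjusted p = 0.415 in limma), and KCNC4, a fast repolarising pore, -0.40 ± 0.34 (adjusted p = 0.425). KCNMB4 had -0.38 ± 0.34. CACNA1B had -0.36 ± 0.37, with 3.86 FPKM for sgNeg and 1.68 for sgPOU2F3 in NCI-H211, and -0.19 without that line. KCNB2 and KCNJ11 had the largest mean ratios, -0.73 ± 0.90 and -0.82 ± 1.18, but were higher in COR-L311. Without NCI-H211 the mean ratio of KCNJ11 was -0.24 and that of KCNB2 -0.48, while without COR-L311 that of KCNB2 was -1.15. CACNA1A was at 0.0676 FPKM or below in all 8 columns and could not be tested. The plot by gene shows the ratio in each line.

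**Figure D3:**
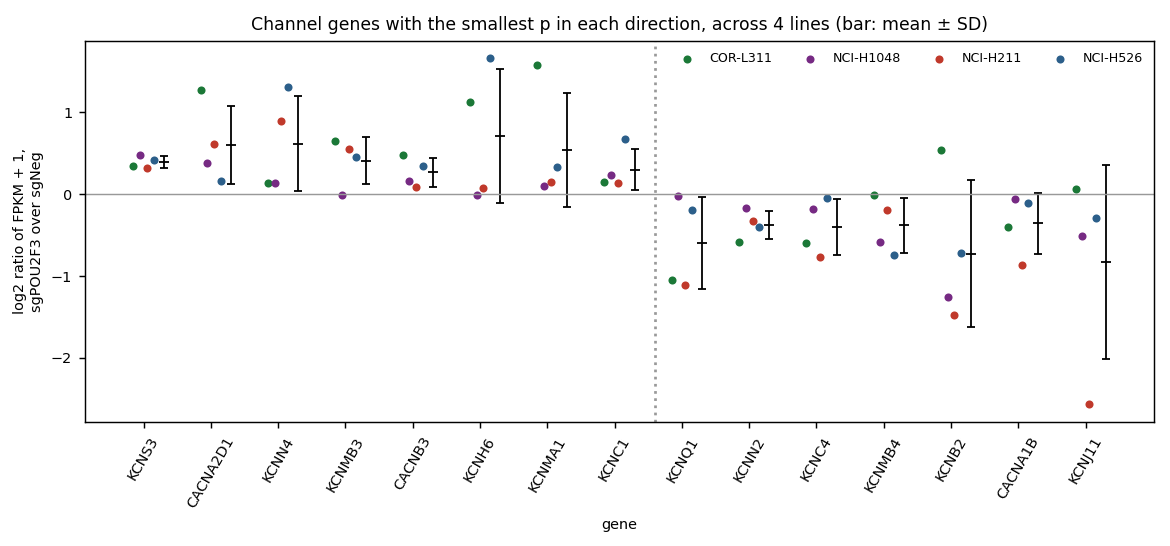
Log2 ratio of FPKM + 1, sgPOU2F3 over sgNeg, in each of the 4 lines for tested members with the smallest p in each direction (8 higher left, 7 lower right of the dotted line). Coloured points are lines and black bars the mean ± SD. KCNS3 has the tightest points, near 0.39, while KCNJ11 is drawn down by NCI-H211 at -2.57.

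Next, each line was taken on its own. Within a line there is 1 value per arm, so members at 1 FPKM or more in either arm were counted by size alone, past a 2-fold ratio of FPKM + 1, with no test. In NCI-H211, 14 of 45 members were lower and 1 higher, 31.1% and 2.22%, against 4.83% and 6.86% of all genes. In COR-L311, 10 of 60 were higher and 3 lower, 16.7% and 5.0%, against 4.28% and 2.12%. In NCI-H526, 4 of 63 were higher and none lower, 6.35%, against 2.05% and 0.496%. In NCI-H1048, 1 of 46 was higher and 3 were lower, 2.17% and 6.52%, against 1.2% and 1.03%. The median log2 ratio of the members was -0.59 in NCI-H211, 0.25 in COR-L311, 0.11 in NCI-H526 and -0.04 in NCI-H1048, and that of all genes lay between -0.032 and -0.002.

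**Figure D4:**
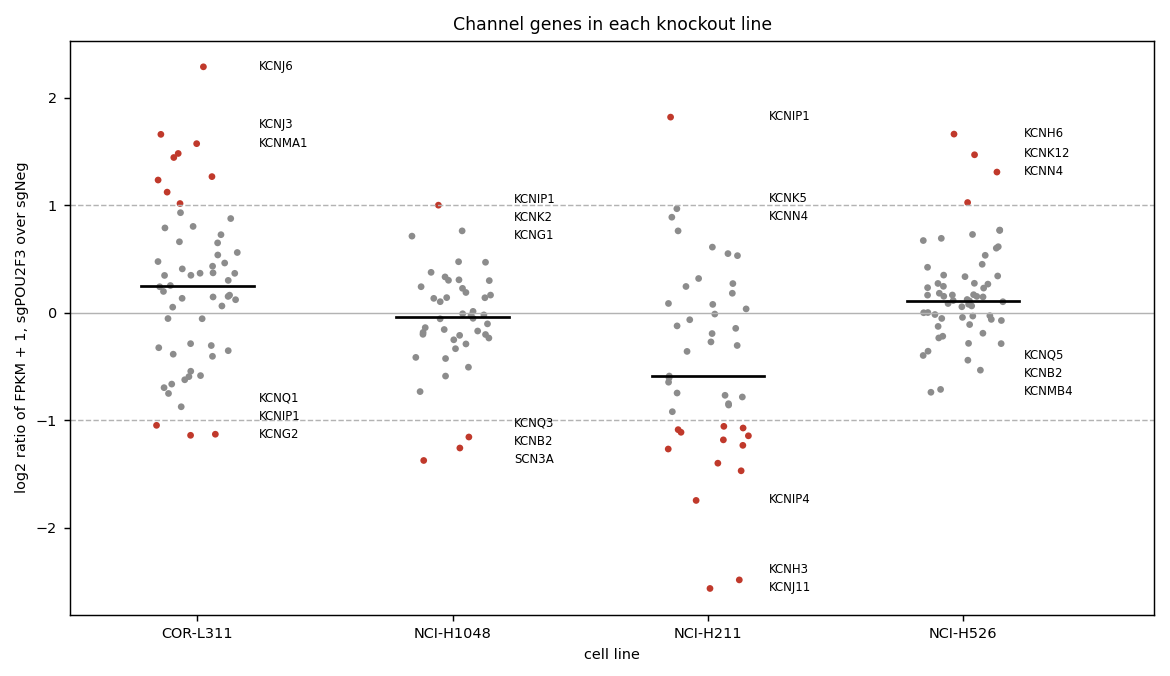
Log2 ratio of FPKM + 1, sgPOU2F3 over sgNeg, of the reported members at 1 FPKM or more in either arm, by line. Red points lie past 2-fold (dashed lines), black bars are the medians of all members counted, and the 3 highest and lowest points of each line are named beside it. The median lies at -0.59 in NCI-H211 and at 0.25 in COR-L311.

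In NCI-H211, 13 of 13 voltage-gated potassium pores read had a negative ratio, and 8 were lower by 2-fold, against 4.83% of all genes. The log2 ratios ran from -0.013 for KCND1, -0.066 for KCNQ5 and -0.123 for KCNQ3, all near 0, to -2.49 for KCNH3. The share of all genes with a negative ratio was not worked out, and each arm has 1 value. All 5 KCNH genes read in that line were among the 8. KCNH2 stood at 39.1 FPKM with sgNeg and 14.2 with sgPOU2F3, KCNH3 at 27.1 and 4.01, KCNH1 at 15.2 and 6.30, KCNH7 at 5.72 and 1.86 and KCNH8 at 3.77 and 1.24. In the parental library of NCI-H211 these genes were, in the same order, at 26.5, 28.6, 7.53, 3.91 and 1.88 FPKM. KCNH3 was thus slightly above its sgNeg value there, and the other 4 lay between the arms. On the log2(FPKM + 1) scale KCNH1 and KCNH8 lay nearer to sgPOU2F3, and KCNH2 and KCNH7 nearer to sgNeg. KCNB2 stood at 40.5 and 13.98 but at 16.1 in the parental library, near the sgPOU2F3 value, and KCNQ1, described above, was also past 2-fold. Outside the pores, the inward rectifier KCNJ11 stood at 61.0 and 9.47 and the auxiliary subunit KCNIP4 at 58.9 and 16.9. KCNT1, KCNK2, KCNK7 and KCNJ3 were also lower by 2-fold. Of the 14 lower members, 3 had a parental level nearer to sgPOU2F3 than to sgNeg on that scale, namely KCNB2, KCNH1 and KCNH8. The tables were scaled separately.

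The KCNH genes read in the other lines went the other way or less far. In COR-L311 KCNH2 stood at 124 FPKM with sgNeg and 159.6 with sgPOU2F3, in NCI-H526 at 58.8 and 71.1 and in NCI-H1048 at 18.8 and 10.9. All 4 KCNH genes read in COR-L311 and all 5 in NCI-H526 had positive ratios, against 1 of 4 in NCI-H1048. KCNH6, which was absent or below 0.1 FPKM in NCI-H211 and NCI-H1048, stood at 8.26 and 19.2 in COR-L311 and at 2.74 and 10.8 in NCI-H526. Over the 4 lines, KCNH2 had a log2 ratio of -0.37 ± 0.85 (SD, adjusted p = 0.634 in limma) and KCNH3 -0.19 ± 1.57 (adjusted p = 0.911 in limma). The difference between lines was not tested, because no line has more than 1 value per arm.

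**Figure D5:**
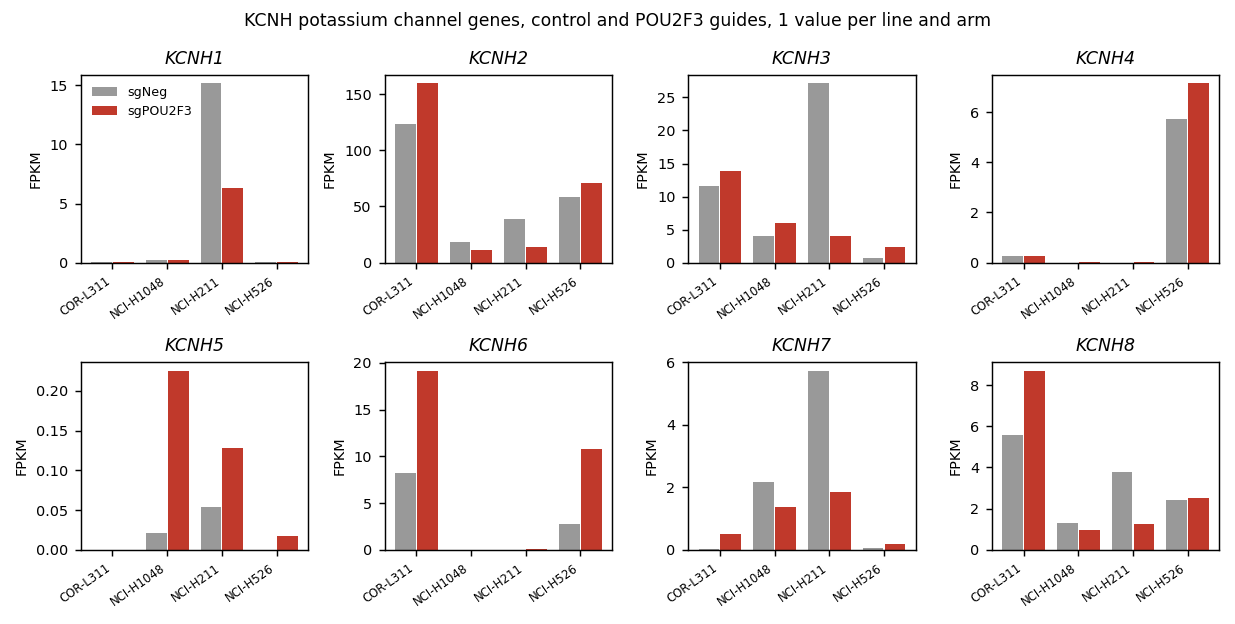
FPKM of the 8 KCNH genes in each knockout line with sgNeg (grey) and sgPOU2F3 (red), 1 bar per deposited value and an axis of its own for each gene. In NCI-H211 the red bar is below the grey bar for KCNH1, KCNH2, KCNH3, KCNH7 and KCNH8, with KCNH3 at 27.1 and 4.01, while in COR-L311 and NCI-H526 KCNH2 is higher in red.

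In COR-L311, the members past 2-fold came from many classes. The G protein-gated inward rectifiers KCNJ6, at 0.407 and 5.87, and KCNJ3, at 0.0187 and 2.22, were both higher. These subunits are known to assemble with each other, but KCNJ3 was lower in NCI-H211, at 19.2 and 8.72. The T-type pore CACNA1G stood at 0.196 and 2.25, the sodium pore SCN3A at 1.86 and 6.99, KCNMA1 at 3.08 and 11.1, and KCNA2 at 18.4 and 44.7. For KCNJ6, KCNJ3 and CACNA1G the sgNeg value is below 1 FPKM. That column is the shallower, at an estimated 10.85 M fragments against 21.71 M, so the size of these differences is not precise. KCNG2, a silent subunit, stood at 17.5 and 7.41 and KCNIP1 at 6.30 and 2.33, among the 3 lower. In the parental library KCNA2 was at 44.2, SCN3A at 5.90 and KCNG2 at 5.78, so for these the sgNeg value is the one that stood apart. The parental level was nearer to sgPOU2F3 than to sgNeg for 3 of the 10 higher and 1 of the 3 lower members. COR-L311 was also the line in which POU2F3 RNA was least reduced.

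NCI-H1048 and NCI-H526 had few members past 2-fold. In NCI-H1048, SCN3A stood at 2.04 and 0.173, KCNB2 at 11.2 and 4.10 and KCNQ3, a subunit of the M-current that restrains firing, at 14.3 and 5.85. KCNIP1 at 3.64 and 8.29 was the only member past 2-fold higher, followed by the leak channel KCNK2 at 2.76 and 5.37 and the silent subunit KCNG1 at 10.0 and 17.1. In NCI-H526, KCNH6, KCNN4 and KCNK12, a leak channel at 2.36 and 8.30, led the higher members. KCNMB4 at 12.9 and 7.33, KCNB2 at 15.9 and 9.27 and KCNQ5 at 2.85 and 1.66 were the lowest, none by 2-fold.

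Few members went past 2-fold in the same direction in more than 1 line. Of 28 members past it in at least 1 line, 21 did so in 1 line only. KCNH6 was higher in 2 lines, and KCNB2 and KCNQ1 were lower in 2. Another 4 went both ways: KCNH3, KCNIP1, KCNJ3 and SCN3A. KCNIP1, a calcium sensor that binds KCND pores, was lower in COR-L311 and higher in NCI-H1048 and in NCI-H211, where it went from 0 to 2.53 FPKM. A value of 0 in a column of lower depth gives no fold.

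Markers of other cell states moved with the NCI-H211 values. There the summed FPKM of 8 YAP and mesenchymal markers was 28.0 with sgNeg and 1052 with sgPOU2F3, with 7 of 8 higher by 2-fold, while 3 of 10 neuroendocrine markers were lower by 2-fold and their sum went from 487 to 373. In NCI-H1048 the first sum was 813 and 2597, with 3 of 8 higher by 2-fold. In COR-L311 and NCI-H526 it was 8.14 and 12.8, and 7.99 and 11.6. In COR-L311, 3 neuroendocrine markers were higher by 2-fold and none lower, with sums of 1167 and 1317. The part of these markers in the channel values was not tested.

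Other genes of membrane excitability and secretion were listed beside the members. In the parental comparison, 9 of 9 tested genes for presynaptic release had negative differences, with a median of -1.64 (log2), against -0.003 over all genes, and none passed limma's adjusted p of 0.05. They include SNAP25 and STX1A, proteins of the vesicle fusion machinery. Of 24 other ion channel genes, 18 were tested, 13 with a negative and 5 with a positive difference and a median of -0.54. The 14 genes for channel partners, such as calmodulins and ankyrins, gave 7 positive and 7 negative differences, and 5 sodium pump genes had 2 positive and 3 negative differences. For calcium release and pumps, 10 were tested, with 4 positive and 6 negative. In the knockout comparison the medians of these lists lay between -0.14 and 0.18, none of their genes passed limma's adjusted p of 0.05, and presynaptic release had 5 positive and 3 negative ratios. For comparison, 6 of 10 tuft markers were called higher in the 4 parental lines, and 10 of 10 had negative ratios in the knockout, with a median of -1.60 and no call. Both counts include POU2F3, the gene that was cut and that sets the 4 lines apart, so its own entries follow from the design. In the 10 other lines RGS13 was at 0, GFI1B at most 0.114 FPKM and POU2F3 at most 0.608. These genes passed the parental filter only through the 4 lines, so their calls there were built into the selection and support nothing.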

How the data were processed

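The authors deposited tables of FPKM, 1 for the 14 parental lines (called RPKM in the labels) and 1 for each of the 4 knockout lines. Per the submitters' processing notes, TopHat2, Cufflinks and Cuffdiff were used on hg19. Versions, annotation, use of strand and the scaling between columns are not given in the sources used here. FPKM values are not counts, so limma 3.58.1 (R 4.3.3) with a variance trend was run on log2(FPKM + 1) over all genes, after asking for 1 FPKM in at least 4 columns. The knockout fit had arm and line as terms over 8 columns, and the parental fit compared 4 lines with 10. P-values were adjusted by Benjamini-Hochberg over all genes, with a threshold of 0.05. The methods were tested on simulated data. All 22 columns were matched to lines by name.

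Named genes are KCNH2 and CACNA1A, the 8 tested members with the smallest p in each direction of each comparison, the 3 largest rises and 3 largest falls in each line, the 10 of highest median level, the top of each class and those nearest the threshold. Values of a few members are not reported here, though counts include them. Others were named after their values were seen. The members and gene lists were chosen with earlier results of these data known. Tables were scaled separately, so tests stay within a table or within a line, and parental and knockout levels are set side by side only as values. Depth was estimated from FPKM steps of genes with 1 transcript in GENCODE on GRCh38, between 1000 and 8000 bases long, and depends on those lengths. Other pseudocounts, filters, scalings and sets of lines were tried.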

Additional observations from a re-analysis of the deposited data

Results flagged for a closer look

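In 44 groups of parental lines, 22 members in the 4 knockout lines and in the 10 others, 5 held a line that stood apart from the rest by Dixon's criterion at 95%, and chance alone marks about 1 group in 20. Among the 4 knockout lines, COR-L311 stood above the others for CACNA2D1 at 22.9 FPKM, NCI-H211 for KCNIP4 at 45.1 FPKM and NCI-H526 for KCNF1 at 0.0143 FPKM, a value that is near 0. KCNF1 was listed at 0 in the other knockout lines, so any value above 0 was bound to be flagged there. Among the 10 other lines, DMS79 stood above for SCN4B at 11.4 FPKM, and DMS114 stood below for KCNB2 at 0.0222 FPKM. The criterion was applied to log2(FPKM + 1).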

How the results depend on the processing

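No member was called in the knockout comparison under any setting tried: a pseudocount of 0.1, no filter, a filter at 5 FPKM, no variance trend, quantile normalization, centring on the median, no line term, and leaving out each line. In the parental comparison the same settings, apart from the line term, gave no call either. Leaving out each of the 14 lines in turn gave 0 to 1 members called lower and 0 to 1 called higher: CACNA2D1 was the call without COR-L311, with an adjusted p of 0.00115, and the call higher came without NCI-H1048. With a pseudocount of 0.1, the members past 2-fold went from 3 to 6 lower in COR-L311, from 1 to 5 higher in NCI-H211 and from 4 to 8 higher in NCI-H526, since low values then weigh more. The other counts within lines stayed within 1.5 times, and no named difference changed sign. With that pseudocount 11 of 15 named parental differences and 5 of 15 named knockout ratios grew by over 1.5 times, among them KCNF1 from -2.67 to -5.37, CACNA1A from -3.58 to -5.87, CACNA1H from -2.48 to -4.56, KCNC1 from 0.30 to 0.67 and KCNN2 from -0.37 to -0.71. The knockout fit pairs the arms within each line. No paired analysis was possible by guide number because both guides share 1 deposited column per line. Values below 1 FPKM rest on few fragments at the estimated depths, and sgNeg columns are shallower than the combined ones, so differences there are not detectable with any precision.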

Other observations

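REST encodes a repressor known to silence neuronal channel genes outside neurons. The 3 parental lines with the most REST RNA were also the 3 with the fewest channel genes at 1 FPKM or more. REST stood at 14.4 FPKM in NCI-H1048, 14.0057 in DMS114 and 8.77 in NCI-H211, and these lines had 36, 39 and 31 members at 1 FPKM or more. In the 11 other lines REST was between 0.0089 and 3.08 FPKM, the highest being NCI-H526, and 48 to 73 members reached 1 FPKM. That level also chose the members, and the share of all genes that reached it in each line was not worked out. At 10 FPKM the lines were not parted: NCI-H82 and DMS114 had 10 members each, NCI-H211 had 11 and NCI-H1048 had 4. The 10 genes for presynaptic release summed to 42.9, 86.4 and 34.1 FPKM in NCI-H1048, DMS114 and NCI-H211, and to at least 175 in the others. The summed FPKM of the members did not part the lines in this way, with 332 in NCI-H82 against 333 in NCI-H211 and 344 in DMS114. Of the members with the RE1 letters in a promoter window, KCNH6 and KCNK3 were both at 0 in NCI-H1048 and NCI-H211 and at 0.415 and 0.0398 FPKM in DMS114. In the other 11 lines KCNH6 ran from 1.91 to 26.0 and KCNK3 from 4.17 to 47.3, while CACNG3 was below 1 FPKM in all but DMS79. This pattern was noticed in the values, rests on 1 library per line, and was not tested. DMS114 also stood apart in COL3A1, at 511.6 FPKM against at most 2.04 in the other lines.

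In the knockout columns REST stood at 18.7 FPKM with sgNeg and 22.3 with sgPOU2F3 in NCI-H1048, 14.2 and 14.6 in NCI-H211, 5.34 and 3.47 in NCI-H526, and 0.736 and 0.423 in COR-L311. Its corepressor RCOR2 stood at 25.3 and 5.09 in NCI-H211 and at 120.7 and 172.5 in COR-L311, the lines with the most members below and above 2-fold. In NCI-H526 RCOR2 stood at 23.97 and 22.6, and in NCI-H1048 at 4.75 and 4.05. A link between RCOR2 and the channel values was not tested. Neither REST nor RCOR2 was past limma's adjusted p of 0.05 across lines.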
